A study of Danio rerio with 12 samples.

Results

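The 3 adult male zebrafish that kept close to, and turned towards, a pair of calm males behind a one-way mirror (BANIC) were compared with 3 males left alone (ISOL). Both sets of 3 belong to a series of 12 whole-brain arrays, so 6 of the 12 arrays enter the comparison, chosen by their labels. All fish were wild-type AB males aged 11 months. Each spent a night alone in the test tank and then 30 min under test, after which the brain was taken, so the ISOL fish shared the isolation and had no other fish in view. By the study's methods the ISOL fish were chosen as inattentive among those tested alone and the BANIC fish as attentive, so both groups were also selected on behaviour. The remaining 6 arrays come from 3 bystanders labelled attentive to a fight between males (BIC) and from 3 inattentive bystanders (BINIC). The BIC fish were, by the study's methods, also chosen as attentive, so BANIC and BIC differ in what they watched. The BINIC fish had the same calm pair in view but paid it little attention. Both groups are used here to show where BANIC stood apart. BANIC and BINIC fish were not assigned at random. The study's methods divided fish with the same stimulus by their own behaviour, by the time spent near the pair and the direction they faced. Fish are numbered by the replicate number of their label (BANIC1 to BANIC3, ISOL1 to ISOL3).

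A neuron that fires strongly switches on a set of transcription factor genes within minutes, without new protein synthesis. These immediate early genes of the Fos, Egr, Nr4a and Npas4 families then drive slower effector genes. Activity also induces kinases, growth factors and the phosphatases that end MAP kinase signalling, and some effectors, such as btg2, are early genes themselves. Clustered protocadherins, a second family met below, are adhesion proteins of the neuronal surface of which single neurons choose differing combinations.

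The authors' values are log2 intensities after RMA, 1 per probe set and array, and the array medians lay between 5.62 and 5.68. Of 21 neuronal markers, 21 had a mean log2 intensity above 5, and their mean level per fish was 8.80 to 8.86 in BANIC and 8.78 to 8.84 in ISOL, so the defining markers of the labelled tissue were present. Markers of some other tissues varied between fish. The mean of 16 skeletal muscle markers was 3.95, 4.37 and 5.18 in BANIC1, BANIC2 and BANIC3, against 4.15, 4.23 and 4.05 in ISOL1, ISOL2 and ISOL3. That of 17 photoreceptor and pineal markers was 4.79, 3.95 and 3.96 in the BANIC fish, against 3.98, 4.67 and 4.76 in the ISOL fish. Muscle markers were thus highest in BANIC3, and photoreceptor markers were high in BANIC1, ISOL2 and ISOL3. In RNA of a whole brain, fewer cells of a type and less RNA per cell cannot be told apart.

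Over all 20874 annotated probe sets, few genes separated BANIC from ISOL. With limma and Benjamini-Hochberg adjustment over all of them, 4 probe sets rose in BANIC (0.0192% of those tested) and 2 fell (0.00958%), where a call asks for an adjusted p under 0.05 and a log2 fold change of 1 or more in either direction. The genes that rose were pcdh2ab7 and pcdhga10, both clustered protocadherins, egr4, an immediate early transcription factor, and si:ch73-221f6.1, a gene that carries only a clone name. Those that fell were ftr50, of the fish-specific finTRIM family, and soga3b. A further gene, hopx, which encodes a small homeodomain protein, passed the adjusted p and not the fold change. At an unadjusted p under 0.05, 557 probe sets were higher in BANIC (2.67%) and 678 lower (3.25%), and the median log2 fold change of all probe sets was -0.008. A nonspecific filter, called here the methods' filter, keeps 1 probe set per gene and, of these, those with an SD across all arrays above the median SD. Probe sets of several genes stayed in, and the annotation was the one used here, so the kept set is not the study's own. Of the 9935 probe sets kept, 7 rose (0.0705%) and 5 fell (0.0503%). This added the immediate early genes fosab (fos), npas4a and nr4a1 and, among those that fell, zgc:153935, dap1b and vwa7. The study's own list for this comparison does not hold vwa7. Which fish entered mattered: without BANIC1 2 probe sets were called, without ISOL1 3, and without ISOL2 27, of which 9 were higher and 18 lower.

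**Figure D1:**
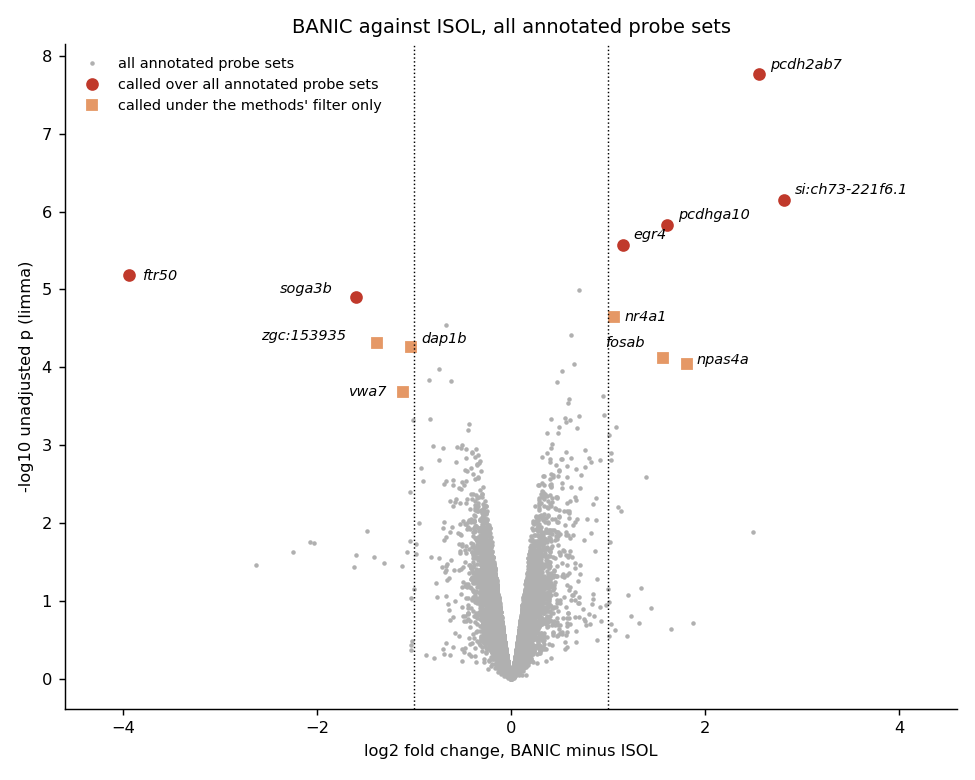
Log2 fold change (BANIC minus ISOL) against -log10 of the unadjusted limma p for 20874 annotated probe sets, with dotted lines at log2 fold changes of -1 and 1. Red points are the 6 probe sets called over all of them and orange squares the 6 called only under the methods' filter; pcdh2ab7 has the smallest p and ftr50 the largest fall.

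Of the 30 lists of genes examined, the immediate early transcription factors had the highest share of members higher in the attentive fish. egr4, of the early growth response family, was at 7.25, 7.11 and 7.40 in BANIC1 to BANIC3, against 6.11, 6.05 and 6.14 in ISOL1 to ISOL3. The lowest BANIC fish was thus above every isolated fish by more than the range within either group. egr4 rose by 1.15 on the log2 scale (standard error 0.09), with an adjusted p of 0.0139 from limma. Its call was lost without BANIC1 (adjusted p = 0.143 from limma), ISOL1 (0.0986) or ISOL3 (0.0611), while the log2 fold change stayed between 1.15 and 1.17 in those fits.

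npas4a and fosab had larger log2 fold changes than egr4, with more spread among fish. nr4a1 had a slightly smaller one, with more spread among the ISOL fish only. npas4a, which is induced by calcium entry in neurons and in mammals shapes inhibitory synapses, was at 8.83, 8.56 and 9.47 in the BANIC fish, against 6.98, 6.98 and 7.46 in the ISOL fish (log2 fold change 1.81, standard error 0.24, adjusted p = 0.125 from limma). fosab, the fos gene whose protein pairs with Jun to form AP-1, was at 8.40, 8.13 and 8.75 in BANIC, against 6.50, 7.12 and 6.96 in ISOL (1.57, standard error 0.20, adjusted p = 0.121). nr4a1, an orphan nuclear receptor, was at 5.85, 5.87 and 5.81 in BANIC, against 4.53, 4.90 and 4.92 in ISOL (1.06, standard error 0.11, adjusted p = 0.0592). In none of these 3 genes did BANIC and ISOL fish overlap, yet none passed over all probe sets in the 6-array fit. Most genes here were called or named for a small p, which itself favours groups that lie apart. Such separation, in these and the other named genes, is therefore a description and not further support. nr4a1 did pass over all probe sets when limma's eBayes step was made robust with a mean trend (adjusted p = 0.0188), with array weights (0.0456) and with centred arrays (0.0481). Among the genes kept by the methods' filter all 3 passed (adjusted p = 0.0058 from limma for npas4a and fosab, 0.0097 for nr4a1). That filter chose genes by their SD over all 12 arrays, the BANIC and ISOL arrays among them. limma's eBayes step was also refitted on the genes kept, so more than the number of tests differed. Passing there is therefore not separate support. In a fit of all 12 arrays, npas4a and fosab passed (adjusted p = 0.0451 for both) and nr4a1 did not (0.462).

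The same 4 genes were also set against the other bystanders, in fits that hold no isolated fish. Those fits do hold the BANIC fish, whose high values led to the choice of these genes. BANIC above BINIC was thus favoured in advance, and the values below are a description and not a separate check. BANIC was above BINIC by 0.92 for egr4 (95% interval 0.61 to 1.24), by 1.39 for npas4a (0.86 to 1.93), by 1.28 for fosab (0.90 to 1.66) and by 1.08 for nr4a1 (0.51 to 1.65). No BANIC fish overlapped a BINIC fish in any of them: egr4, for instance, was at 6.06, 6.52 and 6.40 in BINIC1 to BINIC3. Adjusted over all probe sets these differences did not pass (adjusted p from limma 0.235 for fosab, 0.262 for egr4, 0.308 for npas4a and 0.472 for nr4a1). Against BIC, BANIC was lower by estimate in all 4, with log2 fold changes of -0.41 for egr4 (-0.75 to -0.07), -0.43 for npas4a (-0.97 to 0.11), -0.39 for fosab (-0.87 to 0.08) and -0.54 for nr4a1 (-0.94 to -0.15), and each had an adjusted p of 0.9998 from limma. egr4 was at 7.47, 7.97 and 7.55 in BIC1 to BIC3, above all 3 BANIC fish.

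Of 49 immediate early transcription factor genes measured, 16 were higher in BANIC than in ISOL at an unadjusted p under 0.05 (32.7%, where 2.67% of all probe sets were) and 1 was lower (2.04%, where 3.25% of all were). The median log2 fold change of the list was 0.20, against -0.008 over all probe sets, and 38 of the 49 were above 0. egr4 is its only member that passed over all probe sets. The mean of the list per fish was 6.41 to 6.51 in BANIC, against 6.10 to 6.25 in ISOL, so the fish did not overlap. The count of 16 lay between 13, without BANIC1 or without ISOL1, and 20, without ISOL3, and the median without ISOL2 was 0.14. The list includes genes that the study called on these same arrays, so its count is not independent evidence of their direction.

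Members of smaller change are named here after their values were seen, and most belong to the same families. Among the Egr genes egr2a had a log2 fold change of 0.68 (standard error 0.12) and egr1 of 0.40 (0.08), egr1 at 8.89 to 8.98 in BANIC and 8.46 to 8.67 in ISOL. Among AP-1 genes fosb had 0.87, junbb 0.78, junba 0.40, jund 0.34, fosl1a 0.39 and fosl2 0.22, whereas jun, the partner of Fos, had -0.04 (standard error 0.08). npas4b, the second npas4 gene of the zebrafish, was at 7.21, 6.92 and 6.28 in BANIC, against 5.80, 5.81 and 5.70 in ISOL (1.03, standard error 0.21). No other probe set of npas4b had an unadjusted p under 0.01 together with a change of 1 or more. nr4a3 had 0.46. ier2b had 0.47 and myca 0.18. The 1 lower member was nfil3-5, a bZIP repressor gene, with -0.54, at 6.14, 6.56 and 6.29 in BANIC and 7.01, 7.22 and 6.37 in ISOL, so that its groups overlapped. None of these passed over all probe sets (adjusted p from 0.347 for egr2a to 0.97 for jun, from limma).

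**Figure D2:**
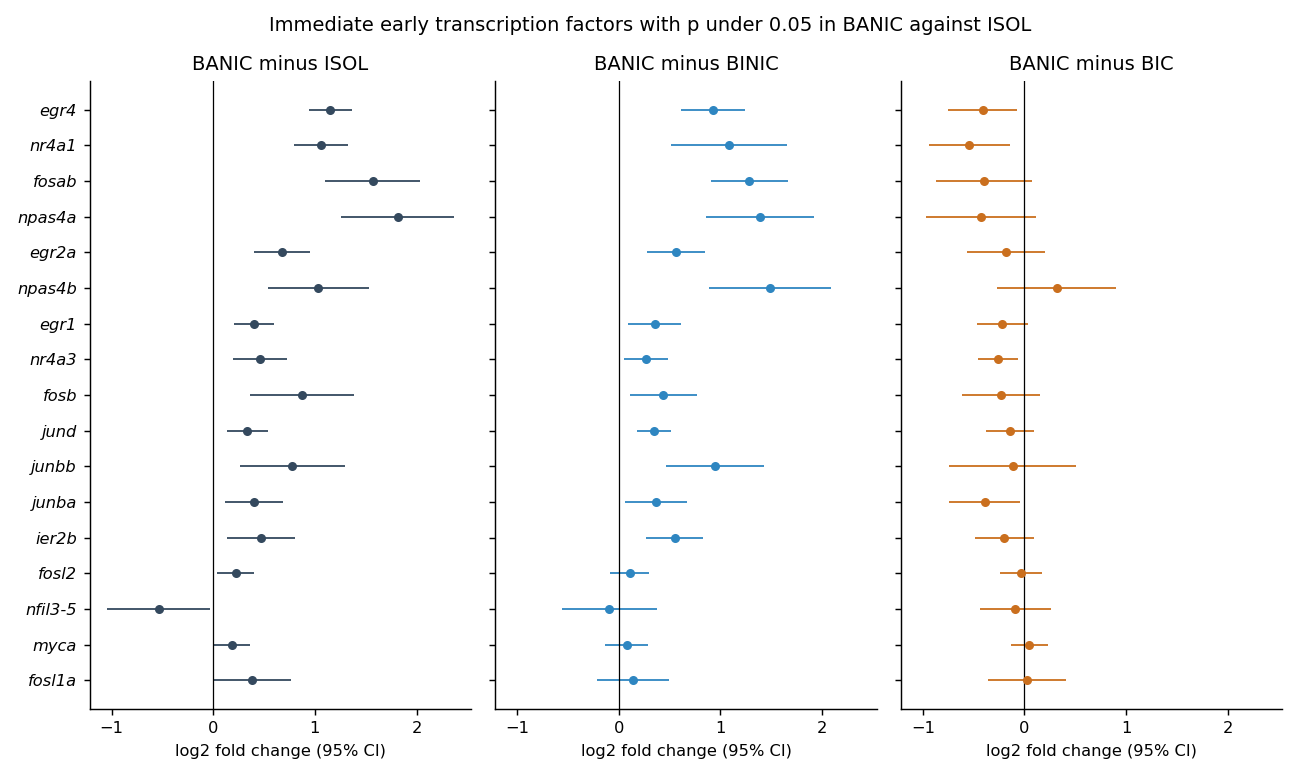
Log2 fold change with its 95% interval for the 17 immediate early transcription factor genes with an unadjusted p under 0.05 in BANIC against ISOL, shown as BANIC minus ISOL, minus BINIC and minus BIC. The genes were chosen by the left panel; in the middle panel most lie above 0 and in the right panel most lie close to or below 0.

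Over the whole list, 22 of the 49 genes were higher in BANIC than in BINIC at an unadjusted p under 0.05 (3.36% of all probe sets were) and 2 were lower (4.86%), with a median log2 fold change of 0.16. Against BIC, 0 of the 49 were higher (2.27% of all probe sets were) and 7 lower (1.95%), with a median of -0.09. The 3 comparisons share the BANIC fish.

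Activity-regulated effector genes, some of them early genes themselves, held smaller differences in the same direction. Of 53 members, 9 were higher in BANIC at an unadjusted p under 0.05 (17.0%, where 2.67% of all probe sets were) and 1 lower (1.89%, where 3.25% were). The median log2 fold change was 0.07. btg2, an antiproliferative gene that activity induces, was at 7.15, 6.95 and 7.53 in BANIC, against 6.29, 6.33 and 6.15 in ISOL (0.95, standard error 0.14, adjusted p = 0.223 from limma). sik1, a kinase that restrains CREB-driven transcription, was at 8.12, 8.04 and 8.13 in BANIC, against 7.14, 7.05 and 7.70 in ISOL (0.80, standard error 0.16, adjusted p = 0.485). BANIC fish were above all ISOL fish in both genes, and in ISOL3 sik1 stood apart from the other isolated fish. midn had 0.34 and bdnf, the growth factor of synaptic plasticity, which lies outside the naming rule, 0.34, at 6.04 to 6.26 in BANIC and 5.70 to 5.86 in ISOL. The 1 lower member was rgs2, which shortens G protein signalling, at 4.87, 5.04 and 4.84 in BANIC, against 5.31, 5.29 and 5.36 in ISOL (-0.41, standard error 0.08, adjusted p = 0.484). None passed over all probe sets. The count of 9 was 6 without ISOL2 and 12 without ISOL3. Against BINIC 7 members were higher (13.2%, where 3.36% of all probe sets were) and 5 lower (9.43%, where 4.86% were), and against BIC 1 was higher (1.89%, where 2.27% were) and 2 lower (3.77%, where 1.95% were).

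Many genes that brake MAP kinase and FGF signalling are induced by the same activity. Of 34 such genes, 7 were higher (20.6%, where 2.67% of all probe sets were) and 0 lower (where 3.25% were). The median log2 fold change was 0.06. dusp1, a phosphatase that inactivates MAP kinases in the nucleus, was at 6.64, 6.36 and 6.88 in BANIC, against 5.81, 5.26 and 5.79 in ISOL (1.01, standard error 0.18, adjusted p = 0.387 from limma). dusp5, which acts on ERK, was at 8.25, 8.09 and 8.26 in BANIC, against 7.08, 7.59 and 7.63 in ISOL (0.77, standard error 0.15, adjusted p = 0.484). spry4, a Sprouty inhibitor of receptor tyrosine kinases, was at 7.28, 6.97 and 7.15 in BANIC, against 6.31, 6.51 and 6.72 in ISOL (0.62, standard error 0.13, adjusted p = 0.485). In these 3 genes each BANIC fish was above each isolated fish, and dusp5 and spry4 were lowest in ISOL1. spred3, of the related Spred family, had 0.29 (standard error 0.09). None passed over all probe sets, and the count of 7 lay between 5 without ISOL1 and 9 without ISOL3. Against BINIC 5 members were higher (14.7%, where 3.36% of all probe sets were) and 0 lower (where 4.86% were). Against BIC 0 were higher (where 2.27% were) and 1 lower (2.94%, where 1.95% were).

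A clustered protocadherin gave the smallest p of the comparison, and members of the family differed in both directions. pcdh2ab7 was at 4.66, 4.83 and 4.92 in BANIC, against 2.39, 2.21 and 2.14 in ISOL. It rose by 2.56 (standard error 0.10, adjusted p = 0.00036 from limma), held when any fish was left out, and was not called in a fit of all 12 arrays (adjusted p = 0.335). Its mean lay below 5 in both groups (4.80 in BANIC and 2.25 in ISOL), so it was not tested when dim probe sets were left out. pcdhga10 was at 6.46, 6.17 and 6.24 in BANIC, against 4.69, 4.498 and 4.86 in ISOL, and rose by 1.61 (standard error 0.12, adjusted p = 0.0103). Its call was lost without BANIC1 (adjusted p = 0.0628) or ISOL1 (0.0866). pcdh2aa15 was at 5.87, 5.70 and 5.91 in BANIC, against 5.11, 5.25 and 5.18 in ISOL (0.65, standard error 0.08, adjusted p = 0.125), while pcdh2g7 was at 5.17, 4.97 and 5.13 in BANIC, against 5.69, 6.01 and 6.10 in ISOL (-0.84, standard error 0.12, adjusted p = 0.162). In each of these 4 genes the fish of the 2 groups were apart, pcdh2g7 with BANIC below. Of 29 members, 4 were higher at an unadjusted p under 0.05 (13.8%, where 2.67% of all probe sets were) and 3 lower (10.3%, where 3.25% were). The median log2 fold change was -0.09 and the mean 0.05, since 23 of the 29 were below 0. Without ISOL1 the lower members numbered 7. Near-identical copies in these clusters may share probes, so that a value may not belong to 1 gene alone.

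These protocadherins were close in both groups that saw the calm pair. pcdh2ab7 was at 4.80, 4.88 and 4.71 in BINIC1 to BINIC3, and BANIC minus BINIC was 0.01 (95% interval -0.20 to 0.22). For pcdhga10 the difference from BINIC was 0.23 (-0.12 to 0.58), for pcdh2aa15 0.09 (-0.10 to 0.28) and for pcdh2g7 -0.14 (-0.38 to 0.10). In BIC the fish differed among themselves: pcdh2ab7 was at 5.02 in BIC2 and BIC3 and at 2.42 in BIC1, and pcdh2g7 at 5.01 and 4.97 in BIC2 and BIC3 and at 6.38 in BIC1. BIC1 was thus on the side of the isolated fish for both. Of the 29 members, 0 were higher and 0 lower in BANIC than in BINIC at an unadjusted p under 0.05. Of all probe sets 3.36% were higher and 4.86% lower, so in a list this short 0 lies near those shares.

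pcdh2ab7 and some other called genes lay at either a high or a low level in each fish. A gene was taken to have 2 levels where the 12 arrays fell on either side of a gap wider than 1, and wider than 3 times the SD of the values around their own side's mean, with 2 or more arrays on each side. This held for 48 of the 20874 annotated probe sets (0.23%), and for 4 of the 6 called here: pcdh2ab7, si:ch73-221f6.1, ftr50 and soga3b. egr4 and pcdhga10 did not meet it. The same 4 were all that met it among the 12 genes called in either fit (33.3%), and among the 21 probe sets with an unadjusted p under 0.01 and a change of 1 or more either way (19.0%), so npas4a and fosab did not. These sets were chosen for a change of 1 or more in 6 of the same arrays. They therefore meet the rule more readily than all probe sets do. The fish on the high side were not those of any 1 treatment. si:ch73-221f6.1 was at 5.21, 5.54 and 5.69 in BANIC, at 2.50, 5.47 and 5.81 in BIC, at 2.57, 2.51 and 5.62 in BINIC and at 2.35, 2.64 and 3.00 in ISOL. It rose by 2.82 against ISOL (standard error 0.19, adjusted p = 0.0074 from limma) and held when any fish was left out. A second probe set of the gene did not share the difference, with means of 2.35 in BANIC and 2.32 in ISOL (0.04, standard error 0.16), and the mean of both had 1.43 (adjusted p = 0.0437). The second probe set was dim, with a mean below 5 in both groups, so its lack of a difference says little about the gene. The study's tables list the called probe set as a copy of znf507. Another probe set, annotated as znf507 itself, averaged 5.96 in BANIC and 5.90 in ISOL (0.06, standard error 0.08).

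ftr50, whose family of tripartite motif proteins has expanded in fish and is linked to antiviral defence, was at 2.59, 2.60 and 1.69 in BANIC, at 5.97, 1.55 and 6.33 in BIC, at 1.71, 6.16 and 6.38 in BINIC and at 5.996, 5.75 and 6.95 in ISOL. It fell by 3.94 against ISOL (standard error 0.35, adjusted p = 0.0273 from limma). Low fish were thus found in all 3 bystander groups and high fish in BIC, BINIC and ISOL. The call was lost without BANIC1 (adjusted p = 0.143), BANIC2 (0.14) or ISOL1 (0.126). soga3b was at 5.52, 5.63 and 5.50 in BANIC, at 6.86, 5.78 and 5.62 in BIC, at 6.94, 5.34 and 5.63 in BINIC and at 7.52, 6.89 and 7.03 in ISOL. It fell by 1.60 (standard error 0.16, adjusted p = 0.0374), and its call was lost without BANIC1 (0.3), BANIC2 (0.176), BANIC3 (0.147) or ISOL3 (0.129). In a fit of all 12 arrays, which takes in the spread of BIC and BINIC, neither ftr50 (adjusted p = 0.685) nor soga3b (0.49) nor si:ch73-221f6.1 (0.649) nor pcdhga10 (0.5) was called.

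**Figure D3:**
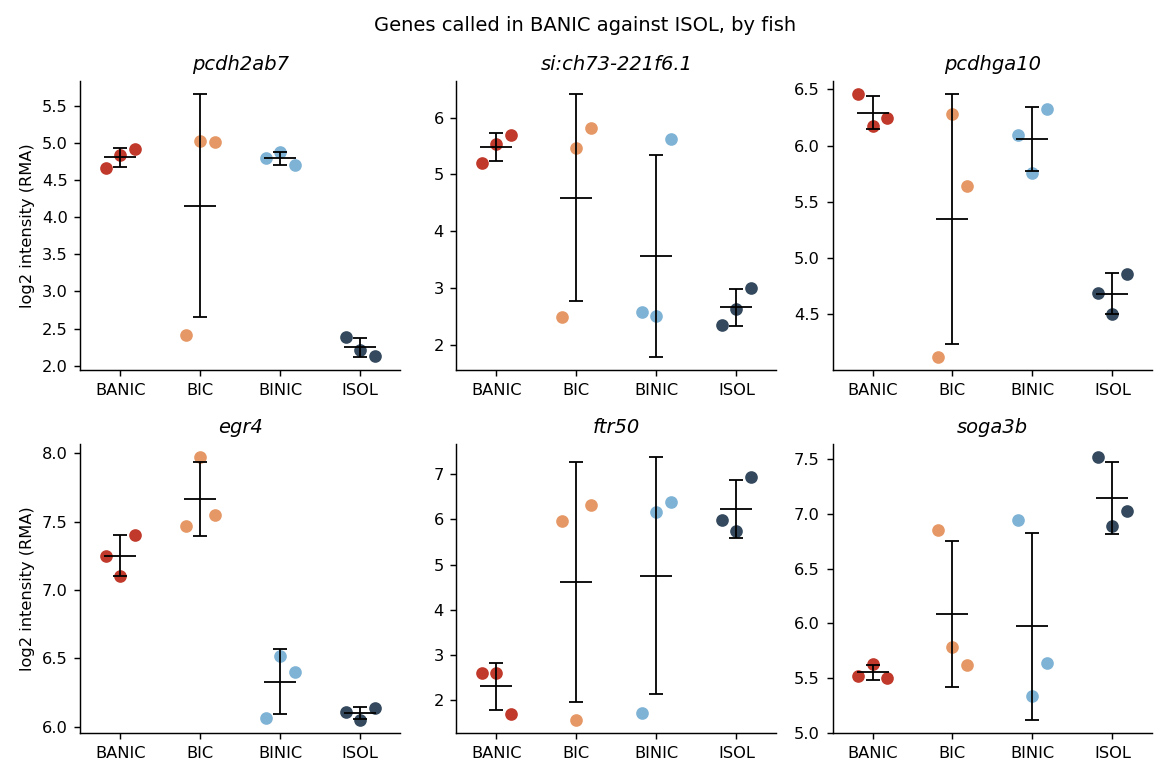
Log2 intensity of the 6 genes called in BANIC against ISOL, with 1 point per fish in BANIC, BIC, BINIC and ISOL and the mean and SD of each group (n = 3 each). pcdh2ab7, si:ch73-221f6.1, ftr50 and soga3b lie at 1 of 2 levels, with BIC or BINIC fish on both sides, while egr4 is high in all 6 BANIC and BIC fish.

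Of the other genes called under the methods' filter, zgc:153935 was at 3.13, 3.03 and 3.48 in BANIC, against 4.75, 4.28 and 4.77 in ISOL (-1.39, standard error 0.17, adjusted p = 0.0932 from limma over all probe sets and 0.0058 under the filter). dap1b, related to death-associated protein, was at 7.70, 7.44 and 7.51 in BANIC, against 8.64, 8.77 and 8.34 in ISOL (-1.04, standard error 0.13, adjusted p = 0.0959 and 0.0176). vwa7 was at 3.89, 3.61 and 3.85 in BANIC, against 4.94, 4.55 and 5.21 in ISOL (-1.12, standard error 0.17, adjusted p = 0.208 and 0.0332). BANIC fish were below all ISOL fish in each. The other probe sets of dap1b did not share its difference: they had log2 fold changes of 0.18 (standard error 0.21) and -0.10 (0.11), and the mean of all probe sets had -0.32.

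Genes with the next smallest p values included several with tight groups and changes below 2-fold. hopx was at 5.85, 5.89 and 5.94 in BANIC, against 5.22, 5.20 and 5.17 in ISOL (0.70, standard error 0.07, adjusted p = 0.0356 from limma). BANIC also lay above BINIC for hopx, by 0.38 (0.22 to 0.53), and above BIC by 0.33 (0.07 to 0.59), and neither difference passed over all probe sets. hopx missed the adjusted threshold when any fish other than ISOL2 was left out (0.132 to 0.237). commd5, of the COMM domain family that regulates endosomal sorting, was at 6.18, 6.14 and 6.19 in BANIC, against 5.47, 5.60 and 5.59 in ISOL (0.61, adjusted p = 0.0808). reep2, which shapes the endoplasmic reticulum in neurons, had 0.53 (adjusted p = 0.138). Among genes lower in BANIC, the carboxylesterase ces2b had -0.75 (0.137), the glucuronosyltransferase ugt5c2 -0.84 (0.324), the receptor gene igflr1 -1.01 (0.324), the sodium channel gene scn12aa -0.43 (0.341) and the polarity gene crb2b -0.44 (0.358). The difference of igflr1 from BIC was as large, -1.24 (-1.54 to -0.94), at 5.07, 4.75 and 4.67 in BANIC and 6.10, 6.21 and 5.89 in BIC. That difference did not pass over all probe sets (adjusted p = 0.164 from limma) and was called only under the methods' filter.

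Several of the genes above are neighbours on chromosome 14. Of the 713 probe sets placed there in the RefSeq annotation, 29 had an unadjusted p under 0.01 in BANIC against ISOL, or 4.07%, where 1.32% of all annotated probe sets and 1.3% of all placed ones did. This was the highest share of the 25 chromosomes, before chromosome 18 with 2.87%. Of the 29, 19 were higher in BANIC and 10 lower. They made up 11.1% of all such placed probe sets, between 7.68% without ISOL2 and 11.7% without ISOL1. Against BINIC, 11 chromosome 14 probe sets had such a p (1.54%, where 1.84% of all probe sets did), and against BIC 5 (0.701%, where 0.685% did). Against BINIC chromosome 7 had the highest share, with 48 of 1066 (4.5%), while 11 probe sets there had such a p against ISOL (1.03%). pcdhga10 and soga3b have no place in the annotation used here and are not counted on any chromosome. The study's text puts pcdhga10 on chromosome 14 and soga3b on chromosome 23. The RefSeq places come from another assembly than the array's design and are used only for chromosome and order.

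The chromosome 14 genes fell in part into runs of neighbours, named here after their values were seen. Between the 31st and 63rd of 669 ordered probe sets lay 9 of the 29: the coagulation factor gene f8 (-0.52), hopx (0.70), and the protocadherins pcdh2g5 (0.83), pcdh2g7 (-0.84), pcdh2g28 (-0.30), pcdh2ab2 (-0.42), pcdh2ab7 (2.56), pcdh2aa15 (0.65) and pcdh2aa1 (0.31). Both directions occurred within this run. The probe sets of highest mean for f8 (-0.25) and pcdh2aa1 (-0.03) are others, and these did not have such a p. dusp1 (1.01), ergic1 (0.29) and npy7r (0.58), and likewise egr1 (0.40) and reep2 (0.53), and ndufa1 (0.56) and nkap (0.46), lay within a few positions of each other. npas4a stood alone at position 400 with 1.81. Members of the early gene and feedback lists, such as dusp1, egr1 and npas4a, were therefore among the 29, beside genes of neither list. BIC1 and the isolated fish were alike for several: commd5 was at 5.62 in BIC1 and 5.94 and 6.06 in BIC2 and BIC3, and reep2 at 8.82 in BIC1 and 9.09 and 9.25 in BIC2 and BIC3.

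**Figure D4:**
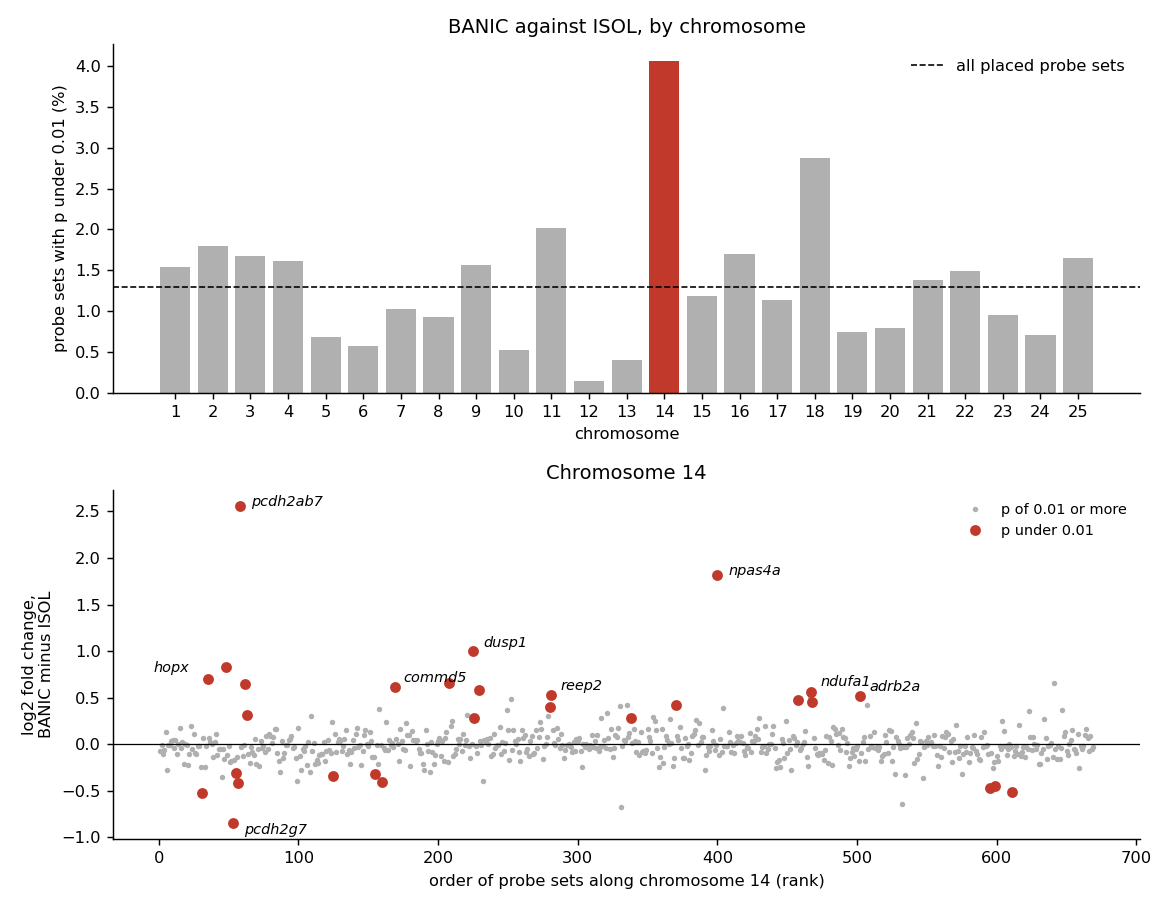
Above, the share of placed probe sets on each chromosome with an unadjusted p under 0.01 in BANIC against ISOL (percent), with the share over all placed probe sets as a dashed line. Below, log2 fold change (BANIC minus ISOL) of 669 probe sets in their order along chromosome 14; the 29 with such a p lie in both directions, with pcdh2ab7 and npas4a highest.

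Of the remaining pathway lists, no member but ftr50 passed over all probe sets. Their counts are at an unadjusted p under 0.05, where 2.67% of all probe sets were higher and 3.25% lower. Cholesterol synthesis genes had 4 of 28 higher (14.3%) and 1 lower (3.57%), with a median log2 fold change of 0.15. mvda, of the mevalonate pathway, was at 5.56, 5.50 and 5.60 in BANIC, against 4.91, 5.14 and 5.12 in ISOL (0.50, standard error 0.09, adjusted p = 0.347 from limma), and sqlea, a squalene epoxidase, had 0.55, while its paralog sqleb had -0.25. In the same genes BANIC was below BINIC: 8 were lower (28.6%, where 4.86% of all probe sets were) and 1 higher (3.57%, where 3.36% were) at an unadjusted p under 0.05, with a median of -0.16. The 4 higher than in ISOL numbered 9 without BANIC1 and 2 without ISOL3. Of 91 oxidative phosphorylation subunits 5 were higher (5.49%) and 2 lower (2.2%), with a median of 0.05. The higher ones numbered 9 without BANIC1 and 2 without ISOL1. ndufb10 of complex I had 0.37 and ndufa1 0.56, while ndufs6, of the same complex, had -0.25. Cytoplasmic ribosomal protein genes had 3 higher (4.69%) and 1 lower (1.56%) of 64, with rplp0 at 0.20 and rps23 at -0.22. Against BINIC, 7 of the 64 were higher (10.9%, where 3.36% of all probe sets were) and 14 lower (21.9%, where 4.86% were). Peroxisome genes had 1 higher and 1 lower of 51 (1.96% each), with scp2a at -0.34 and pex2 at 0.39.

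Circadian clock genes had 2 higher (4.44%, where 2.67% of all probe sets were) and 2 lower (4.44%, where 3.25% were) of 45, with a median log2 fold change of 0.08. These counts rested on single fish: they were 17 and 5 without ISOL3, 8 and 4 without BANIC2, 0 and 1 without BANIC1, 1 and 0 without ISOL1 or BANIC3 and 0 and 0 without ISOL2. per1b, a light- and activity-responsive repressor of the clock, was at 8.11, 7.38 and 8.05 in BANIC, against 6.89, 6.88 and 7.54 in ISOL (0.75, standard error 0.24, adjusted p = 0.797 from limma), and per3 had 0.53. bmal1b, the activator they oppose, had -0.30. The fish overlapped for per1b, since ISOL3 was above BANIC2. Phototransduction genes had 0 higher and 2 lower (3.17%) of 63, with a median of -0.11. The lower ones numbered 7 without BANIC1, 5 without ISOL1, 4 without ISOL2 and 0 without ISOL3 or BANIC3. Their mean per fish was 4.63, 4.12 and 4.14 in BANIC, against 4.16, 4.56 and 4.65 in ISOL, so that BANIC1, ISOL2 and ISOL3 were high and the groups overlapped. The ultraviolet and green opsin genes, opn1sw1 with -0.47 and opn1mw1 with -0.37, had adjusted p values of 0.82 and 0.833.

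Signalling genes of the brain showed few differences from ISOL. At an unadjusted p under 0.05, 2.67% of all probe sets were higher in BANIC than in ISOL and 3.25% lower. These lists reached at most 5.45% and 3.64%. Neuropeptide and hormone genes had 3 higher and 1 lower of 55, among them ucn3l, a urocortin of the stress peptide family, with 0.47, and pth2, a peptide that in zebrafish follows the presence of conspecifics, with -0.29 (standard error 0.12, adjusted p = 0.833 from limma). pth2 was at 3.82, 3.61 and 3.92 in BANIC, against 4.18, 3.88 and 4.15 in ISOL, and BANIC3 was above ISOL2. Of the same 55 genes, 8 were higher in BANIC than in BINIC (14.5%, where 3.36% of all probe sets were). Against BINIC 1 was lower (1.82%, where 4.86% were). Aminergic genes had 3 higher and 2 lower of 55. The adrenergic receptor gene adrb2a had 0.52, the histamine receptor genes hrh3 and hrh2a 0.34 and -0.35, and th2 0.25. Glutamate receptor genes and GABA and glycine genes had 1 higher and 1 lower of 36 each, with grin3bb at 0.22, grm8b at -0.35, gabrr1 at 0.40 and gabrp at -0.23. Voltage-gated potassium channel genes had 0 higher and 1 lower of 53, kcnab1a with -0.56. Notch pathway genes had 2 higher and 1 lower of 47, hes6 with 0.22, heyl with 0.21 and jag2a with -0.28.

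Stress-related lists were mixed. At an unadjusted p under 0.05, 2.67% of all probe sets were higher and 3.25% lower, and the lists below reached at most 4.49% and 5.88%. Glucocorticoid and stress response genes had 0 higher and 2 lower of 34, with a median log2 fold change of 0.06. Of the 34, 22 were above 0, and the largest log2 fold change, 1.19, came without an unadjusted p under 0.05. The mean of the list per fish was 5.99 to 6.24 in BANIC, against 6.11, 5.59 and 6.22 in ISOL1 to ISOL3. ISOL2 was thus the lowest of these fish. angptl4, a lipoprotein lipase inhibitor that fasting and glucocorticoids induce, was at 5.21, 5.26 and 5.24 in BANIC, against 6.35, 5.61 and 6.49 in ISOL (-0.91, standard error 0.21, adjusted p = 0.592 from limma), with ISOL2 nearest to the BANIC fish. Heat shock and chaperone genes had 4 higher and 0 lower of 89, with a median of 0.01. The largest was hspb6, a small heat shock protein abundant in muscle, at 6.70, 7.12 and 8.03 in BANIC, against 5.94, 6.31 and 6.21 in ISOL (1.13, standard error 0.31, adjusted p = 0.716). BANIC3, highest for hspb6, was also highest for the muscle markers, and the part of muscle RNA in this difference was not tested. finTRIM genes had 0 higher and 3 lower of 51, with a median of -0.05, and after ftr50 the next was ftr63 with -0.29.

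**Figure D5:**
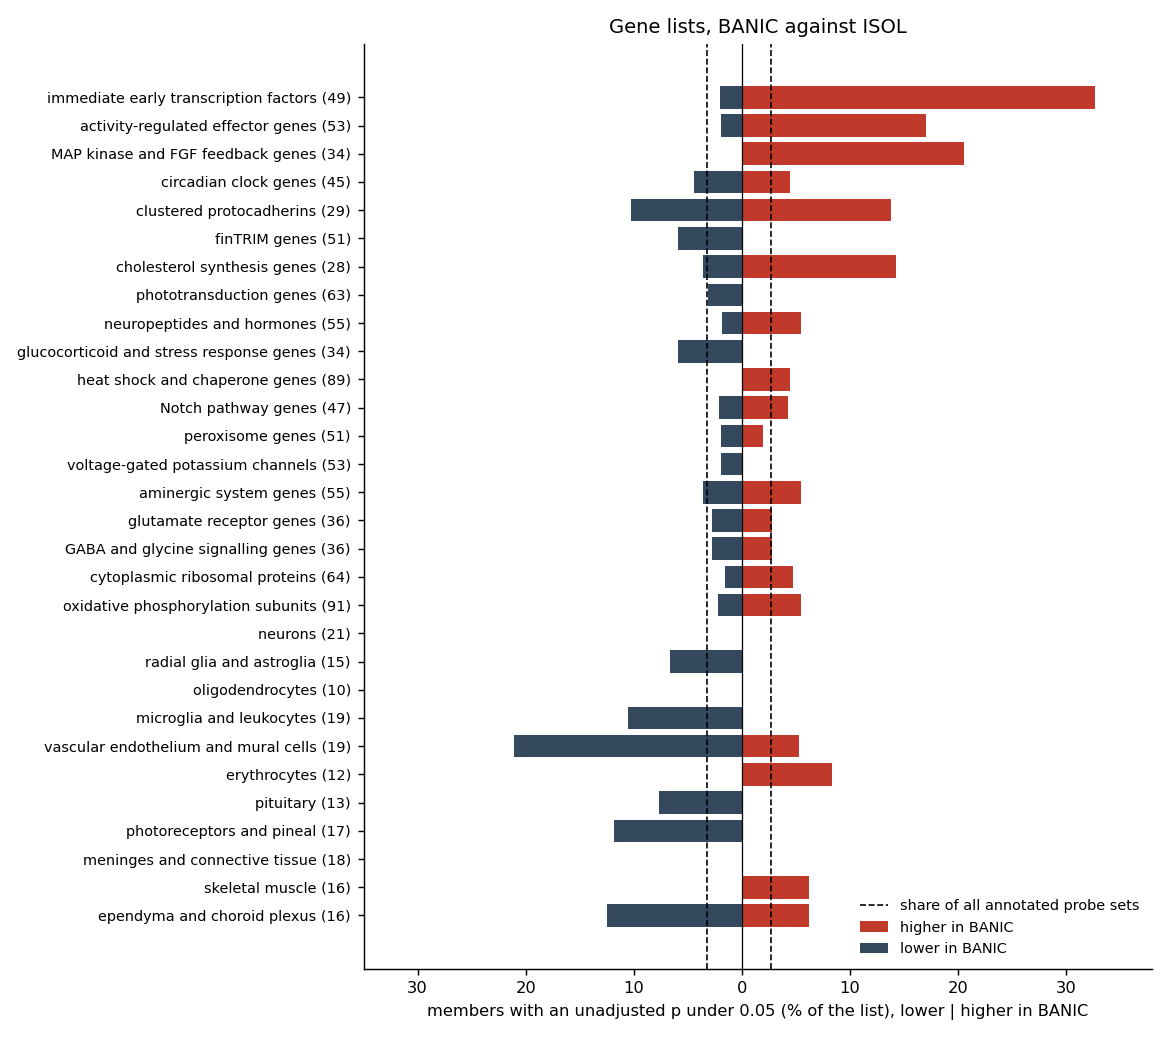
Share of each list's members (percent, number of members in brackets) with an unadjusted p under 0.05 in BANIC against ISOL, higher in BANIC to the right and lower to the left, with the shares over all annotated probe sets, 2.67% and 3.25%, as dashed lines. The immediate early transcription factors have the longest bar to the right, 32.7%, and the vascular markers the longest to the left, 21.1%.

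Markers of the main brain cell types differed little between BANIC and ISOL. At an unadjusted p under 0.05, 2.67% of all probe sets were higher and 3.25% lower. In lists this short, 1 marker is already a larger share than either. Of 21 neuronal markers, 10 oligodendrocyte markers and 18 markers of meninges and connective tissue, 0 had an unadjusted p under 0.05 in either direction, with median log2 fold changes of 0.02, -0.01 and -0.00. Radial glia and astroglia had 0 higher and 1 lower of 15, gfap with -0.22, and pituitary markers 0 and 1 of 13, tbx19 with -0.23. Vascular endothelium and mural cell markers had 1 higher and 4 lower of 19 (21.1%, where 3.25% of all probe sets were lower), with a median of -0.09. tie1, an endothelial receptor, was at 5.35, 5.31 and 5.46 in BANIC, against 5.79, 5.72 and 5.68 in ISOL (-0.35, standard error 0.07, adjusted p = 0.506 from limma), and the junction gene cldn5a had -0.32, whereas abcc9 of mural cells had 0.22. The 4 lower markers numbered 2 without ISOL1, ISOL3 or BANIC2 and 6 without ISOL2. Microglia and leukocyte markers had 0 higher and 2 lower of 19, with 17 of the 19 below 0 and a median of -0.11, and csf1rb, a receptor that microglia need, had -0.24. Erythrocyte markers had 1 higher of 12, the globin gene hbae3 with 0.27, while the globin gene hbaa2 was at 6.88, 7.18 and 6.79 in BANIC and 6.04, 5.19 and 7.09 in ISOL, with ISOL3 within the range of the BANIC fish. Against BINIC, 4 of the 12 erythrocyte markers were higher (33.3%, where 3.36% of all probe sets were) and 0 lower (where 4.86% were). Ependyma and choroid plexus markers had 1 higher and 2 lower of 16, with igfbp2a at 0.41. Skeletal muscle markers had 1 higher of 16, acta1b with 0.38, and the myosin light chain gene mylpfa was at 3.77, 4.93 and 7.35 in BANIC and 4.31, 4.32 and 3.71 in ISOL. Photoreceptor and pineal markers had 0 higher and 2 lower of 17. With 1 fish left out, higher muscle markers numbered 4 without BANIC1, higher erythrocyte markers 4 without ISOL3 and lower microglia markers 4 without ISOL2. None of these markers passed over all probe sets.

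Set directly against the other bystanders, BANIC differed at few single genes. Against BIC 1 probe set was called (0.00479%), gusb, lower in BANIC, and against BINIC 1 (0.00479%), LOC100331149, also lower in BANIC. Against BIC, 881 probe sets had an unadjusted p under 0.05, 473 higher in BANIC (2.27% of those tested) and 408 lower (1.95%). Against BINIC, 1716 had such a p, 702 higher (3.36%) and 1014 lower (4.86%). gusb, which encodes the lysosomal enzyme beta-glucuronidase, was at 5.89, 5.20 and 5.67 in BANIC and 8.10, 8.15 and 8.33 in BIC, with fish of both kinds in BINIC and ISOL. LOC100331149, an oxysterol-binding protein gene by the study's tables, was at 4.81, 4.85 and 5.02 in BANIC and 7.18, 7.39 and 7.62 in BINIC. Both genes met the rule for 2 levels. The call of gusb was lost without any 1 of BIC1, BIC2, BIC3 or BANIC3, and that of LOC100331149 without BINIC2. A fit of all 12 arrays called 0 probe sets in either comparison. List counts against BIC and BINIC are given above for some lists only.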

How the data were processed

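Total RNA of 12 whole brains, 1 fish per array and 3 per group, was run on zebrafish gene ST arrays (Affymetrix). The authors used oligo to normalize all arrays jointly by RMA, and deposited log2 intensities, 1 per probe set and array, from 0.932 to 12.5. Precision is limited by the number of arrays. Of 23467 rows, the platform annotation lists 20871 and 3 more (pcdhga10, soga3b and a second npas4b probe set) were named from the study's tables. Names follow RefSeq (GRCz12tu): 20196 probe sets have 1 gene and 678 several, which were tested and not named.

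BANIC was compared with ISOL, BIC and BINIC in limma 3.58.1 under R 4.3.3, on 6 arrays each, all annotated probe sets, 2-sided, with Benjamini-Hochberg adjustment, and called at an adjusted p under 0.05 with a log2 fold change of 1 or more either way. Genes with several probe sets were represented in lists by that of highest mean. The text names the genes called, the 10 of smallest p in each direction with a gene name and up to 4 of smallest p per list (19 pathway and 11 cell type lists). The members and lists were chosen with earlier results of these data known. On simulated arrays with independent noise, 200 probe sets were changed by 1 to 3 (log2). In BANIC against ISOL, 98% of those changed by 1 passed the adjusted p and 54% were called, since that change equals the fold threshold. Of those changed by 1.5, 98% were called, with 0 false calls among the unchanged probe sets of the 20874 tested. So many changed probe sets ease the adjusted threshold. These shares therefore do not give the power of the real comparison, in which 6 were called. Other filters, fits, weights and scalings, and each array left out, were tried as alternatives. Sequences and the fish's behavior were not analysed here.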

Additional observations from a re-analysis of the deposited data

Results flagged for a closer look

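In 2 genes the difference between BANIC and another bystander group itself passed the test over all probe sets. gusb was lower in BANIC than in BIC with -2.61 on the log2 scale (standard error 0.17) and an adjusted p of 0.0211 from limma, at 5.89, 5.20 and 5.67 in BANIC and 8.10, 8.15 and 8.33 in BIC. It was at 5.81, 7.79 and 7.65 in BINIC and at 8.21, 5.53 and 7.86 in ISOL, so that BANIC against ISOL did not pass (-1.62, adjusted p = 0.831). LOC100331149 was lower in BANIC than in BINIC, with -2.50 (standard error 0.12, adjusted p = 0.0022), while BANIC and ISOL differed by -0.06. In BIC it was at 4.84, 4.999 and 7.05. Each gene has fish at a high and a low level in at least 1 other group.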

How the results depend on the processing

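The count of 6 probe sets called in BANIC against ISOL became 12 under the methods' filter, 3 in a fit of all 12 arrays, of which 1 was among the 6, and between 2 and 27 with 1 array left out. With no fold change threshold, with 1 probe set or the mean of all probe sets per gene, and with every row it stayed between 6 and 8. The same range held without dim probe sets, with a trended and robust eBayes, with array weights and with centred arrays. The genes called were not always the same. Without dim probe sets, those with a mean below 5 in both groups, pcdh2ab7 was not tested and nr4a1 was called. With the trended and robust eBayes ftr50 was not called (adjusted p = 0.082 from limma), while nr4a1, dap1b and zgc:153935 were. With the replicate number as a block the count was 2, pcdh2ab7 and si:ch73-221f6.1. The correlations of same-numbered fish, -0.08, 0.05 and 0.10, do not show that the numbers pair the fish. The cause of these shifts was not tested. At an unadjusted p under 0.05 the 1235 probe sets became 584 under the methods' filter and 816 without dim probe sets, where fewer were tested, and between 1049 and 1667 with 1 array left out. Against BIC the 1 probe set became 2 under the methods' filter, 0 in a fit of all 12 arrays and between 0 and 5 with 1 array left out. Against BINIC the 1 became 0 in a fit of all 12 arrays and between 0 and 3 with 1 array left out. The counts of list members that were higher lay between 13 and 20 for immediate early factors, 6 and 12 for effectors and 5 and 9 for feedback genes. No log2 fold change in BANIC against ISOL reversed among the 22 genes named for a call or for the smallest p in each direction. Genes named only as list members, and the single genes of the direct comparisons, had no such alternatives. Alternatives for the direct comparisons with 1 array left out, for the counts at an unadjusted p, for list members and for chromosome 14 were chosen after seeing the data. In the lists for which no such shift is given above, the counts in either direction lay between 0 and 5 with 1 array left out.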
